A study of Mus musculus with 11 samples.

Results

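Cells of the MamBo43HER2labile mouse mammary carcinoma line were sequenced after 60 days in trastuzumab (TRT) and after 30 days in trastuzumab followed by 30 days without it (TRNT). These 2 libraries, of 11 in the series, were compared with each other, and each gene was then placed between its level in untreated MamBo43 cells (1 library) and its level in the MamBo38HER2loss line (4 libraries). Of the 10000 genes above 5 CPM (counts divided by the TMM-adjusted library total, a unit that can be compared between libraries) in at least 1 library of the pair, 579 differed at least 2-fold, which is 5.79%. The TRT library was higher for 184 of them (1.84%) and the TRNT library for 395 (3.95%).

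The lines were established from tumors of FVBhuHER2 virgin female mice, which carry a human HER2 transgene. MamBo43 cells are HER2-positive but lose HER2 in part of the cells, and MamBo38 cells were derived from a tumor that had grown from injected MamBo43 cells and had lost HER2. According to the methods, the MamBo43 cultures of both schedules had been seeded at high density and had lost HER2 expression. Under continuous trastuzumab the culture is described as taken over by spindle-like cells, with few polygonal cells remaining. Separately, a small share of the cells is described as still HER2-positive. The morphology and the HER2-positive share of the withdrawal culture are not given in the sources used here. Trastuzumab was used at 30 µg/ml in all treated cultures, and the untreated MamBo43 library received none. The MamBo38 libraries were 2 untreated cultures, 1 TRT culture and 1 TRNT culture. MamBo89HER2stable, a line from another tumor that keeps HER2, was sequenced under both schedules as well. Each line is a single isolate, and the human transgene is not among the mouse genes counted. All MamBo43 and MamBo89 libraries and 1 untreated MamBo38 library share a code in their names, and the other 3 MamBo38 libraries carry another.

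With 1 library for each schedule there is no replicate spread and no test. The methods mention replicates for each sample, but the labels give 1 library for each schedule, and whether its column pools replicates is not given in the sources used here. Values are therefore given as levels and ratios, with an exact 95% interval of the ratio that covers counting error of these columns only. A ratio was called at 2-fold, and the 107 genes between 2-fold and 2.2-fold (the nearest was Dock5) can be set beside 162 genes between 1.8-fold and 2-fold, which were not called (Flnc was the nearest). Total counts were 26853067 in TRT, 20592201 in TRNT and 26212551 in untreated MamBo43, and between 17040454 and 27127662 over all libraries. In bulk RNA, fewer cells of a type and less RNA per cell cannot be told apart.

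Trastuzumab is an antibody against the extracellular part of HER2, a receptor tyrosine kinase that pairs with the other ErbB receptors. Epithelial cells are held in a sheet by adherens junctions built on E-cadherin, by tight junctions of claudins and occludin, and by desmosomes anchored to keratin filaments. In epithelial-mesenchymal transition (EMT), transcription factors of the SNAI, ZEB and TWIST families repress these genes, and the cells take a spindle shape with vimentin filaments and a fibronectin-rich matrix.

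The marker genes of the cultures were measured first. The summed level of 6 epithelial markers (Cdh1, Epcam, Krt8, Krt18, Cldn7 and Esrp1) was 3773 CPM in untreated MamBo43, 2136 CPM in TRNT, 368.6 CPM in TRT and between 1.35 and 2.61 CPM in MamBo38. For 6 mesenchymal markers (Vim, Fn1, Zeb1, Zeb2, Twist1 and Sparc) the sums were 925.3, 35253 and 41105 CPM in the same order, and 20583 to 29279 CPM in MamBo38, most of it Fn1. Not all of the other mesenchymal genes followed Fn1. Vim was lower in both treated libraries (544.0 CPM in TRT and 526.7 in TRNT) than in MamBo38, which had 2004 to 3497 CPM. Sparc, at 460.5 and 406.1 CPM against 698.5 to 1269, and Zeb1, whose values are given with the EMT transcription factors, were lower too. Zeb2, given there as well, was above every MamBo38 library in TRT and within their range in TRNT. Markers of blood cells (8 genes), endothelium (7 genes) and adipocytes (5 genes) summed to at most 4.79 CPM in either treated library, and Ptprc, Itgam, Cd3e, Adgre1, Cdh5, Kdr, Emcn, Cldn5 and Lep had no count in any MamBo43 library.

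**Figure D1:**
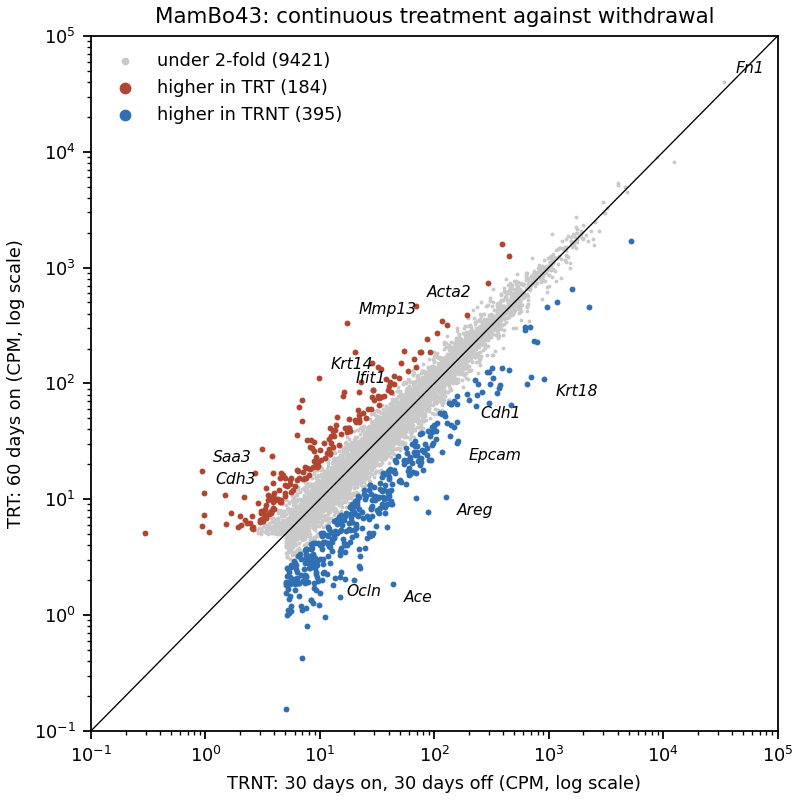
Level of each of the 10000 tested genes in the MamBo43 TRNT library (x axis) and the TRT library (y axis), in CPM on log scales, with the line of equality. Red points are the 184 genes at least 2-fold higher in TRT and blue points the 395 genes at least 2-fold higher in TRNT. Epithelial genes such as Krt18, Epcam and Ocln lie below the line, while Mmp13, Acta2 and Krt14 lie above it and Fn1 lies close to it.

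Cell-cell junction genes were higher after withdrawal. Of 32 junction genes listed, 29 passed the level filter, and 19 were at least 2-fold higher in TRNT and 0 in TRT, with a median log2 ratio of TRT over TRNT of -1.46 against 0.01 over all tested genes. Ppl, a plakin of the desmosome and cornified envelope, had 29.9 CPM in untreated MamBo43, 2.57 in TRT and 22.2 in TRNT (log2 ratio -3.11, 95% counting interval -3.50 to -2.74). Ocln, the tight junction protein occludin, had 70.6, 2.07 and 13.5 CPM in the same order and no count in any MamBo38 library (log2 ratio -2.71, interval -3.16 to -2.28). Epcam, an epithelial adhesion molecule, had 632.2, 30.8 and 158.5 CPM, against at most 0.278 CPM in MamBo38. In these genes the TRNT level lay between those of TRT and untreated cells, and TRT was itself above MamBo38 for Ocln and Epcam.

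E-cadherin and desmosomal genes were among the others called. Cdh1, which encodes E-cadherin and lies on chromosome 8 from 106603351 to 106670246 (GRCm38), had 774.2 CPM in untreated MamBo43, 72.1 in TRT, 201.2 in TRNT and 0.834 to 1.52 in MamBo38, a log2 ratio of -1.48 (interval -1.56 to -1.40). Cldn7, a claudin of tight junctions, had 246.0, 9.13 and 42.8 CPM in untreated, TRT and TRNT cells, a wider ratio of 4.69-fold. Dsp, the desmosomal plakin that binds keratins, had 214.2, 66.0 and 140.9 CPM. Jup, plakoglobin, was just under the threshold with 41.0 CPM in TRT and 80.1 in TRNT, both far from 452.2 CPM in untreated cells. The listed gene that leaned clearly the other way was Cldn1 (named after its value was seen), with 0.548, 7.40 and 3.72 CPM, a log2 ratio of 0.99 that passed 2-fold when libraries were scaled by RLE size factors. All 26 junction genes that differed at least 2-fold between untreated MamBo43 and MamBo38 had a TRNT level nearer to untreated MamBo43, on the log2 scale, than the TRT level was.

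The promoters of the junction genes are shown because the E-box, a 6-base element bound by SNAI and ZEB repressors, is known from the Cdh1 promoter. The letters searched were CACCTG and CAGGTG, which are the same element read on opposite strands, in the 250 bases before each RefSeq transcription start (GRCm38.p6). Of the 19 called junction genes, 12 were matched in the RefSeq promoter table and 7 of these held the element. Cdh1 itself was not matched, so its promoter was not searched. The element was present in 8 of the 16 windows of the matched genes (50%), against 17.2% of all 32851 windows of the same length. Epcam (chr17:87635729-87635978, plus strand), Lsr (chr7:30973470-30973719, minus strand; the lipolysis-stimulated receptor of tricellular junctions) and Pard6b (chr2:168080754-168081003, plus strand; a polarity protein) each held at least 2 copies in a single window. They are printed 5′ to 3′ with the element in capitals.
Epcam: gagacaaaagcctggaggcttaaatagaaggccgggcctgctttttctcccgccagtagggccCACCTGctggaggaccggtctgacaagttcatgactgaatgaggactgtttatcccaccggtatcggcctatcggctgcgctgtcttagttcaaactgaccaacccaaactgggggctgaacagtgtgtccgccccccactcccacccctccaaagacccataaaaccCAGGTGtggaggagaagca
Lsr: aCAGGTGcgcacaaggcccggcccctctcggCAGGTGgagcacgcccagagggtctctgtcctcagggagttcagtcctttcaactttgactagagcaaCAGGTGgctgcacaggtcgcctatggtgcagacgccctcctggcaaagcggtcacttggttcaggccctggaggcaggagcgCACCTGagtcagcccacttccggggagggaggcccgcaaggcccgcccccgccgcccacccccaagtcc
Pard6b: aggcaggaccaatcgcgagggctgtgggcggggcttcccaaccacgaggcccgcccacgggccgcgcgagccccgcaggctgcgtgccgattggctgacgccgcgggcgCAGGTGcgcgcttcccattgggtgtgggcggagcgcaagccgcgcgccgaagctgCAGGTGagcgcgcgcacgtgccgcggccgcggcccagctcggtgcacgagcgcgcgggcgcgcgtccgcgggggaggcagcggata
Pard6b had 33.0 CPM in untreated MamBo43, 3.30 in TRT and 14.9 in TRNT, and Lsr, chosen for its sequence after its values were seen, had 198.4, 12.1 and 41.5 CPM. A match to these letters is a description of the sequence and says nothing of whether a factor was bound there.

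Regulators of the epithelial state followed the junctions. Of 17 measured, 11 were at least 2-fold higher in TRNT and 0 in TRT, with a median log2 ratio of -1.44. Esrp1, the splicing factor that keeps epithelial isoforms, had 394.4 CPM in untreated MamBo43, 82.3 in TRT and 350.2 in TRNT, so the withdrawal library stood at 88.8% of the untreated level and TRT at 20.9%. The membrane protease St14 (matriptase) and its inhibitors Spint1 and Spint2 differed 3.21-fold, 3.75-fold and 3.88-fold. Rab25, a GTPase of apical recycling, had 131.9, 10.5 and 32.8 CPM in untreated, TRT and TRNT cells. Klf5, an epithelial transcription factor, had 28.8, 10.4 and 30.5 CPM. MamBo38 expressed it too, at 25.1 to 43.6 CPM, and 4 of the 24 listed regulators passed the level filter in that line. Trp63, the basal epithelial p63 gene (named after its values were seen), had 22.6, 41.0 and 34.3 CPM and did not differ 2-fold in any pair of the 3 libraries.

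**Figure D2:**
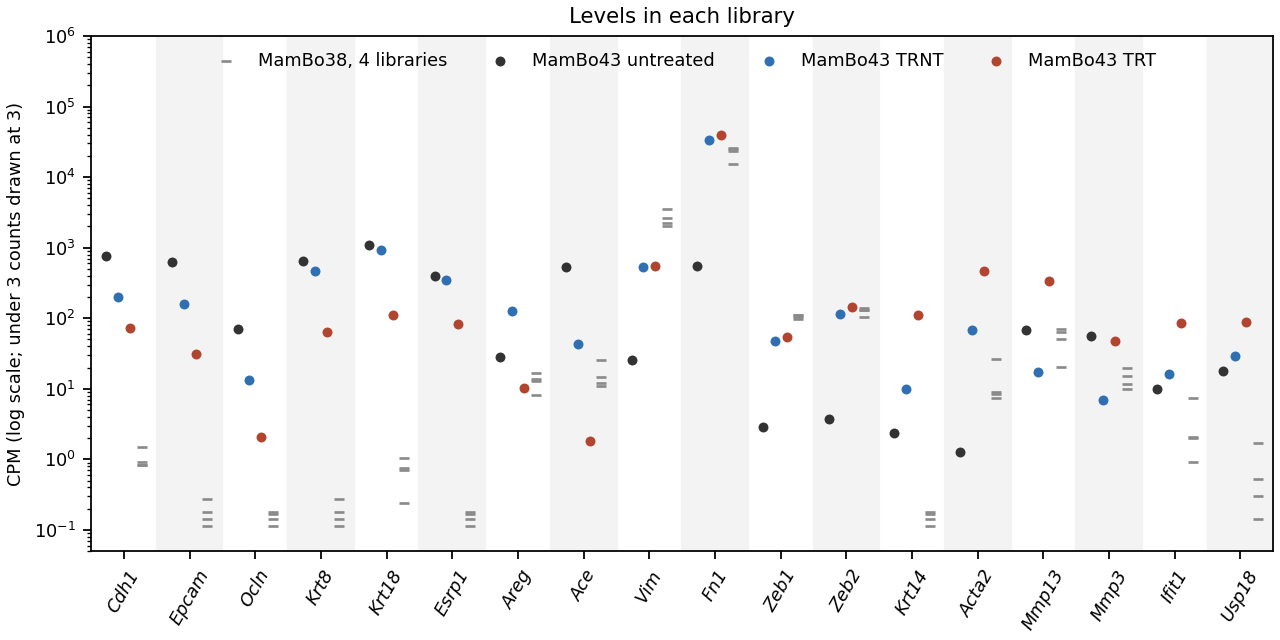
Level of 18 genes in each MamBo43 library (points: untreated in black, TRNT in blue, TRT in red) and in the 4 MamBo38 libraries (grey dashes), in CPM on a log scale, with values under 3 counts drawn at 3 counts. For the epithelial genes on the left TRNT lies between untreated and TRT except for Areg, Vim to Zeb2 nearly coincide in TRT and TRNT, and Krt14, Acta2, Mmp13, Ifit1 and Usp18 are highest in TRT.

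The keratins had the largest median difference of any list, with members on both sides. Krt8 and Krt18, the simple-epithelium pair whose genes lie close together on chromosome 15, had 641.1 and 1085 CPM in untreated MamBo43, 64.4 and 109.9 CPM in TRT, and 470.0 and 913.3 CPM in TRNT. The ratios were 7.29-fold and 8.31-fold, and TRNT stood at 73.3% and 84.2% of the untreated level. Of the 75-base windows of Krt8, 23.5% also occur in transcripts of other genes, so part of its count could stem from these. Krt7 was above the untreated level in TRNT, with 260.2, 97.9 and 642.9 CPM in untreated, TRT and TRNT cells. Krt80 had 3.80 and 3.76 CPM in untreated and TRT cells and 24.7 CPM in TRNT.

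Krt14, the keratin of basal and myoepithelial cells, had the opposite order. It had 2.39 CPM in untreated MamBo43, 111.4 in TRT and 9.90 in TRNT (log2 ratio 3.49, interval 3.29 to 3.71), and at most 0.0759 CPM in MamBo38. Its basal partner Krt5, named after its values were seen, was below the level filter with 0 CPM in untreated cells, 3.84 in TRT and 0.0490 in TRNT. Cdh3, P-cadherin, another basal gene, had 0.0783, 11.4 and 0.980 CPM. The contractile genes Acta2 (smooth muscle actin) and Myl9 (a myosin light chain) had 1.29 and 0.548 CPM in untreated cells, 467.4 and 35.5 CPM in TRT, and 69.1 and 6.32 CPM in TRNT. For Krt14, Cdh3, Acta2 and Myl9 the TRT level was above that of every MamBo38 library as well as of untreated cells. Acta2 and Myl9 were 2 of 12 measured contractile genes, and Cav2, a caveolin, was the other called, higher in TRNT at 67.7 against 29.0 CPM.

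Mammary secretory and luminal genes were higher after withdrawal in 7 of 12 cases and in TRT in 0, with a median log2 ratio of -1.24. Wfdc2, a secreted protease inhibitor of glandular epithelium, had 555.7, 25.3 and 116.6 CPM in untreated, TRT and TRNT cells. Lcn2 (lipocalin-2) had 3918, 652.4 and 1612 CPM, and the milk protein gene Csn3 had 69.8, 2.22 and 6.86 CPM. Ceacam1, an adhesion molecule, had 98.4, 9.05 and 38.9 CPM, although 24.5% of its windows are shared with other transcripts. Some members below the level filter, named after their values were seen, leaned the other way. The milk protein genes Csn1s1 and Csn2 had 33.4 and 17.7 CPM in untreated cells, 1.19 and 1.07 CPM in TRT, and 0.245 and 0.147 CPM in TRNT, with log2 ratios of 2.28 (interval 0.90 to 3.999) and 2.87 (interval 1.17 to 5.23). Wfdc18, another secreted protease inhibitor, had 74.6, 1.57 and 0.294 CPM (log2 ratio 2.42, interval 1.18 to 3.95). Btn1a1, butyrophilin of the milk fat globule, had 4.70, 0.345 and 0.0490 CPM, with an interval that includes equality. All 4 were at or near the floor of 3 counts in TRNT. Kit, the receptor of luminal progenitors, did not differ 2-fold between the schedules, with 238.9 CPM in untreated cells, 16.9 in TRT and 11.9 in TRNT.

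The EMT transcription factors leaned towards TRT, but differed less between the schedules than the junction genes did. Of 11 measured, 9 were higher in TRT, with a median log2 ratio of 0.27 against 0.01 over all tested genes. Of the 11, 2 were called, both higher in TRT, as were 1.84% of all tested genes. These were Twist2 with 8.44 against 3.92 CPM and Snai2 with 7.48 against 3.63 CPM, with the reservation that 45.3% of the windows of Twist2 are shared. Zeb1 had 2.86 CPM in untreated MamBo43, 54.2 in TRT, 47.5 in TRNT and 98.4 to 112.1 in MamBo38. Zeb2 had 3.76, 144.8 and 115.8 CPM and 105.6 to 137.6 CPM in MamBo38. Vim, the vimentin gene, had 25.9, 544.0 and 526.7 CPM, and Fn1, fibronectin, had 558.7, 39853 and 34116 CPM. The schedules thus differed by at most 1.25-fold in Zeb1, Zeb2, Vim and Fn1, and by 2.79-fold in Cdh1.

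Matrix genes leaned towards TRT. Of 35 measured, 31 were higher in TRT and 4 in TRNT, by at least 2-fold in 11 and 2 of them, with a median log2 ratio of 0.57. Mmp13, collagenase-3, had the largest ratio of all called genes higher in TRT, with 68.8 CPM in untreated MamBo43, 333.8 in TRT, 17.4 in TRNT and 20.6 to 69.4 in MamBo38 (log2 ratio 4.26, interval 4.11 to 4.42). Mmp3 (stromelysin-1), on the same stretch of chromosome 9, had 56.2, 47.3 and 6.91 CPM, and Mmp9 (gelatinase B) had 0.430, 5.91 and 0.931 CPM. The collagen cross-linking enzyme Loxl2 had 0.587, 7.25 and 0.980 CPM, but 43.6% of its windows are shared. Col10a1, a collagen of cartilage outside this list, had 0.235, 63.1 and 6.52 CPM.

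The fibrillar and fibronectin matrix differed less, for example Col3a1 with 712.5 CPM in TRT and 438.7 in TRNT, Col5a2 with 791.7 and 419.1 CPM, Vcan (versican) with 512.2 and 305.3 CPM, and Mmp2 with 528.1 and 382.7 CPM. In untreated cells these 4 genes had at most 22.8 CPM. The genes called in the other direction were Spp1 (osteopontin), with 12102 CPM in untreated cells, 1682 in TRT and 5290 in TRNT, and the matricellular Thbs1 with 2019, 229.9 and 787.0 CPM.

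**Figure D3:**
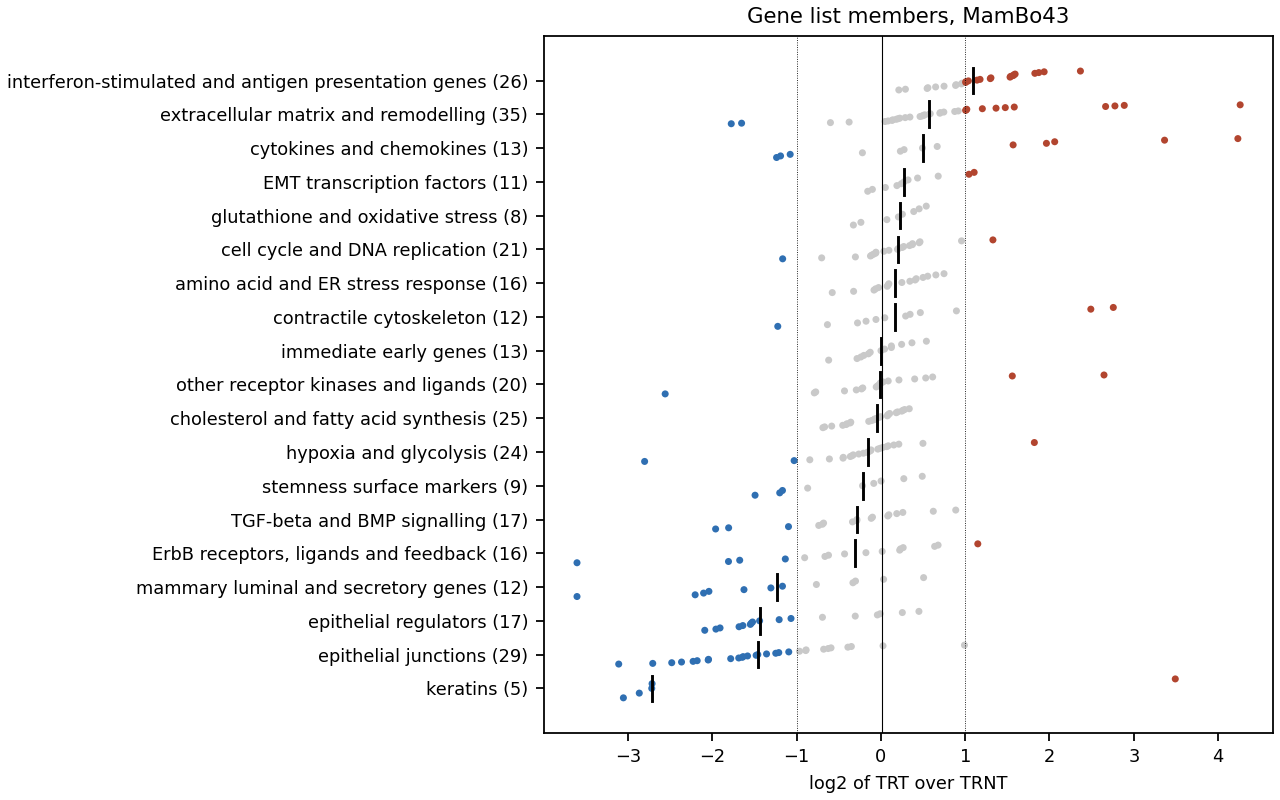
Log2 ratio of TRT over TRNT for each list member above 5 CPM in at least 1 MamBo43 library of the pair (points; red and blue are at least 2-fold higher in TRT and TRNT), with the number measured in parentheses and the median as a black bar. The solid line is the median of all tested genes at 0.01 and the dotted lines mark 2-fold. Junction, regulator and luminal genes lie to the left and interferon-stimulated genes to the right, while lists such as cholesterol synthesis centre near the line.

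Interferon-stimulated and antigen presentation genes were higher under continuous trastuzumab. All 26 measured leaned towards TRT, 16 of them by at least 2-fold, with a median log2 ratio of 1.09. Ifit1, an antiviral RNA-binding protein, had 10.02 CPM in untreated MamBo43, 84.4 in TRT and 16.4 in TRNT (log2 ratio 2.37, interval 2.2 to 2.54), and Ifit3 had 4.19, 83.5 and 21.8 CPM with 41.1% of its windows shared with its near copy. Usp18, which restrains interferon receptor signalling, had 17.6, 87.6 and 29.1 CPM. Irf7, a transcription factor of the interferon response, had 26.3, 51.7 and 14.1 CPM. The genes under 2-fold, named after their values were seen, included B2m, with 1206 CPM in TRT and 717.4 in TRNT, and H2-K1, with 326.2 and 281.5 CPM. MamBo38 was below untreated MamBo43 for most of these genes (median log2 difference -1.29 over the measured list), and 18 of them differed at least 2-fold between these ends. In 12 of the 18 the TRNT level was the nearer of the pair to untreated cells, as for Usp18. In 10 of the 18, TRT was past untreated MamBo43 on the side away from MamBo38.

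Of 16 ErbB receptors, ligands and feedback genes measured, 4 were called higher in TRNT and 1 in TRT. Areg (amphiregulin, an EGFR ligand) had 28.1 CPM in untreated MamBo43, 10.4 in TRT and 126.5 in TRNT, a 12.2-fold difference and the largest of any listed gene higher in TRNT. Tgfa had 38.9, 5.29 and 16.9 CPM and Hbegf 141.8, 55.7 and 122.1 CPM. Nrg1 (neuregulin-1, the ligand of ErbB3) was called in the other direction, with 8.18, 37.9 and 17.1 CPM. Of the receptors, Erbb3 had 127.6, 6.83 and 23.9 CPM and mouse Erbb2 had 117.1, 19.9 and 31.6 CPM with 17.9 to 24.0 in MamBo38, the latter a ratio of 1.58-fold that was not called. Whether reads of the human HER2 transgene were counted as mouse Erbb2 was not tested.

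Cytokine genes were called in both directions, 5 of 13 higher in TRT and 3 in TRNT. Saa3 (serum amyloid A3) had 0.274, 17.5 and 0.931 CPM in untreated, TRT and TRNT cells, Ccl7 had 0.313, 71.2 and 6.91 CPM, Ccl2 had 4.73, 32.5 and 7.79 CPM, and Il6 had 0.196, 39.97 and 13.5 CPM. Cxcl5 had 111.9 CPM in untreated cells, 32.7 in TRT and 8.38 in TRNT, so the higher TRT level was still below the untreated one. Cxcl16 was among those higher after withdrawal, with 8.98 and 21.2 CPM. Ptgs2 (cyclooxygenase-2) stayed under 2-fold with 900.8 and 639.8 CPM, from 50.7 CPM in untreated cells.

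Other signalling genes gave fewer calls, beside a share of 5.79% called over all tested genes. In the TGF-beta and BMP list, 3 of 17 were higher in TRNT and 0 in TRT: Ccn2 (96.6 CPM in TRT, 376.1 in TRNT and 794.3 in untreated cells), Ccn1 (452.6, 967.6 and 1477 CPM) and Bmp4 (42.2, 147.7 and 91.3 CPM). Among 20 other receptor kinases and ligands, Fgf7 with 149.97 against 50.9 CPM was higher in TRT, as was Igf2, of whose windows 60.7% are shared, and Fgfbp1 with 4.87 against 28.7 CPM was higher in TRNT. Pdgfrb, the PDGF receptor beta, had 292.9 and 297.6 CPM, against 50.9 CPM in untreated cells and 92.4 to 129.1 CPM in MamBo38. Of 24 hypoxia and glycolysis genes, Car9 (carbonic anhydrase 9, with 3.22 and 22.5 CPM) and Ankrd37 were higher in TRNT and Adm (adrenomedullin, with 190.0 and 53.8 CPM) in TRT.

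Of 9 stem cell surface genes measured, 3 were at least 2-fold higher in TRNT and 0 in TRT. Cd44 had 133.1 and 132.9 CPM in TRT and TRNT, and Ly6a, which encodes Sca1, had 77.1 and 54.9 CPM. Cd24a, the epithelial partner of the CD24-negative, CD44-high phenotype, had 341.8 CPM in untreated cells, 18.3 in TRT and 41.1 in TRNT, and Prom1 had 124.0, 4.53 and 12.7 CPM. Thy1, the other gene called, was above untreated cells in both, with 2.15, 6.10 and 14.0 CPM. Of 21 cell cycle genes, Cdkn1a (the inhibitor p21) was higher in TRT, with 60.1, 741.7 and 295.2 CPM in untreated, TRT and TRNT cells, and Cdkn2b (p15) was higher in TRNT, with 18.3, 9.44 and 21.2 CPM. No gene was called among 25 of cholesterol and fatty acid synthesis, 16 of the amino acid and ER stress response, 13 immediate early genes or 8 of glutathione metabolism. Over all tested genes 5.79% were called, and lists this short can hold 0 calls at that share.

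The largest differences of single genes lay in part outside these lists. Ace, angiotensin-converting enzyme, had 541.3 CPM in untreated MamBo43, 1.84 in TRT, 43.6 in TRNT and 10.8 to 25.4 in MamBo38, so TRT was below every other library of MamBo43 and MamBo38. Cidea, a lipid droplet protein, had 2.23, 0.153 and 5.10 CPM. Csdc2, an RNA-binding protein, had 79.2, 0.422 and 6.96 CPM, and Megf6 had 54.5, 0.805 and 7.74 CPM. Gdf6, a BMP family ligand, had 37.9, 7.75 and 88.4 CPM, and Padi2, a peptidylarginine deiminase, had 17.6, 1.99 and 19.7 CPM. On the other side, Txnip, which binds thioredoxin and limits glucose uptake, had 164.9 CPM in untreated cells, 187.8 in TRT and 20.4 in TRNT. The atypical cadherin Fat2 had 0.665, 10.9 and 1.47 CPM, and the complement gene C4b had 9.12, 27.3 and 3.14 CPM, with 22.7% of its windows shared.

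Each called gene was then set against untreated MamBo43 alone. The series holds no MamBo43 library at 30 days on trastuzumab, so whether TRNT had first reached the TRT level was not tested. The class names below therefore describe levels and not a course over time. Of the 579, 141 were at least 2-fold from the untreated level in TRT and within 2-fold of it in TRNT, and are called returned. A further 362 were at least 2-fold away in both libraries on the same side, with TRNT nearer, and are called partly returned. Together these made up 86.9% of the called genes, 91.1% of those higher in TRNT and 77.7% of those higher in TRT. Returned genes included Krt18, Krt8, Esrp1, Ppl, Dsp, Car9, Ifit1 and Ccl2, and partly returned genes included Cdh1, Epcam, Ocln, Pard6b, Krt14 and Acta2.

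The rest were fewer. In 32 genes TRNT alone was 2-fold from untreated cells, among them Txnip, Mmp3, Krt80 and Kirrel3. In 11 genes both libraries were at least 2-fold away on the same side, with TRNT farther from untreated cells than TRT. Among them were Igfbp5, an IGF-binding protein with 12623 CPM in untreated cells, 77.2 in TRT and 16.1 in TRNT, Itga8 with 182.9, 43.3 and 13.8 CPM, and Pmp22 with 0.430, 6.33 and 19.0 CPM. In 7 genes the libraries were 2-fold away on opposite sides, among them Areg, Krt7, Gdf6, Cidea, Mmp13 and C4b. Another 26, Irf7, Rtp4, Cdh13 and Ifitm10 among them, stayed within 2-fold of the untreated level in both libraries.

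Placement between the lines used the 3118 tested genes that differed at least 2-fold between untreated MamBo43 and the MamBo38 mean, with all 4 MamBo38 libraries on the same side. Position 0 is the untreated MamBo43 level and position 1 the MamBo38 mean, on the log2 scale. For the 1656 genes higher in MamBo38, the median position was 0.83 in TRT and 0.70 in TRNT. For the 1462 genes lower in MamBo38, it was 0.67 in TRT and 0.50 in TRNT. TRNT had the lower position for 2469 of the 3118 genes (79.2%), most of them by less than 2-fold, and both libraries share the ends they are placed against. A lower position is not always nearer to untreated cells or farther from MamBo38, since positions can pass 0 and 1. By absolute log2 distance, TRNT was nearer to untreated cells than TRT for 2467 of the 3118 (79.1%), and for 6726 of all 10000 tested genes (67.3%). Positions past MamBo38 were common, at 29.2% of the genes higher in MamBo38 for TRT and 14.5% for TRNT.

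**Figure D4:**
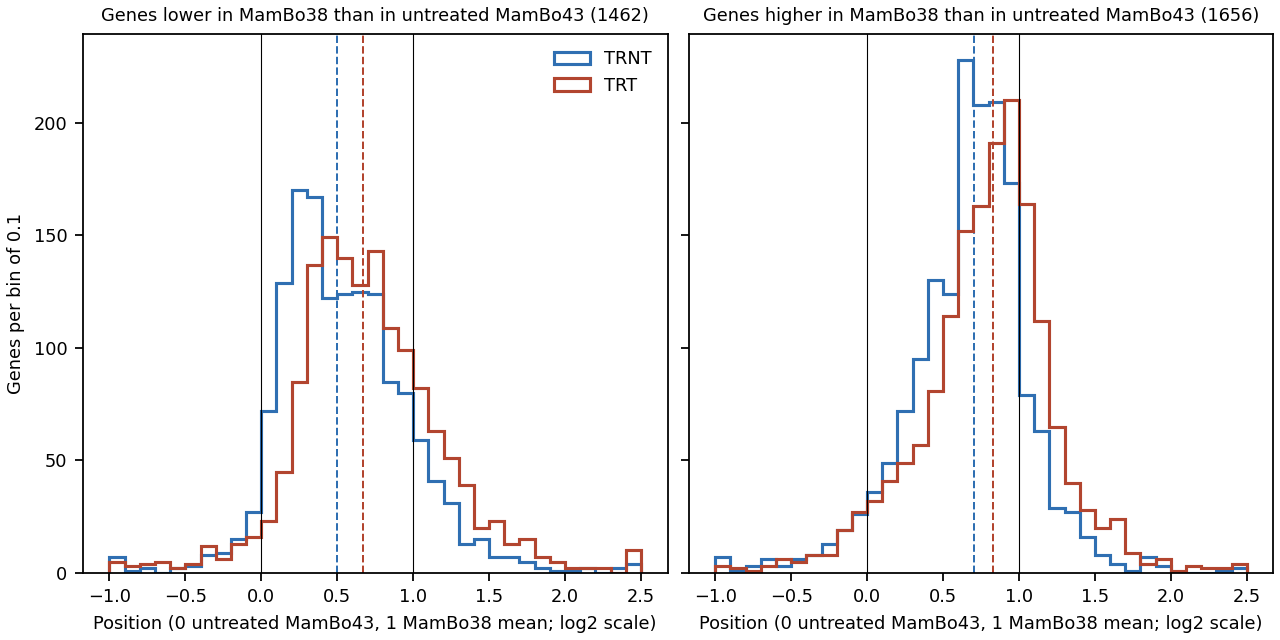
Number of genes by position on the log2 scale between untreated MamBo43 (0) and the MamBo38 mean (1), in bins of 0.1, for genes lower (left, 1462) and higher (right, 1656) in MamBo38, with positions beyond the range drawn in the end bins. TRNT (blue) lies to the left of TRT (red) in both panels, with medians (dashed) of 0.50 against 0.67 and 0.70 against 0.83.

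Among the called genes, direction and placement went together for those higher in TRNT. Of 395, 352 separated the ends, and 346 of these (98.3%) were lower in MamBo38, which gives TRNT the lower position. By distance, TRNT was nearer to untreated cells in 342 (97.2%). Of the 184 higher in TRT, 124 separated the ends, with TRNT at the lower position in 85 (68.5%) and nearer to untreated cells by distance in 100 (80.6%). The 39 without the lower position were lower in MamBo38 than in untreated MamBo43 and yet higher in TRT than in TRNT, as Irf7 and Usp18 were. In 64 of the 184 genes, TRT was at least 2-fold above untreated MamBo43 and every MamBo38 library. Among the 64 were Acta2, Krt14, Cdh3, Col10a1, Saa3 and Ifit1, whose TRT level thus lay outside the range set by the ends. TRNT was as far above in 21 of the 184, but these genes were selected for a higher TRT level. Of the 395 higher in TRNT, TRNT was at least 2-fold above all these libraries in 14, and TRT at least 2-fold below them all in 22.

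Genes nearly absent from the other end give the same comparison as a percentage. In 270 genes above 20 CPM in untreated MamBo43 and at no more than 2% of that level in any MamBo38 library, the median level was 6.47% of untreated in TRT (quartiles 3.40% and 12.1%) and 19.2% in TRNT (quartiles 8.13% and 33.9%). TRNT was higher in 247 of the 270, with a median ratio of 2.81 (quartiles 1.98 and 3.73). Csn1s1 (3.56% in TRT and 0.733% in TRNT) and Wfdc18 (2.11% and 0.394%) were among the other 23. More than 50% of the untreated level was reached by 2 genes in TRT and 29 in TRNT, and the spread over genes was wide: Krt18 stood at 84.2% in TRNT, Cdh1 at 26.0%, Ocln at 19.2% and Prom1 at 10.3%. In 129 genes above 20 CPM in every MamBo38 library and at no more than 2% of that in untreated MamBo43, the medians were 54.5% of the MamBo38 mean in TRT and 36.9% in TRNT, with TRT higher in 110. These gene sets and their limits were chosen after the data had been seen.

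**Figure D5:**
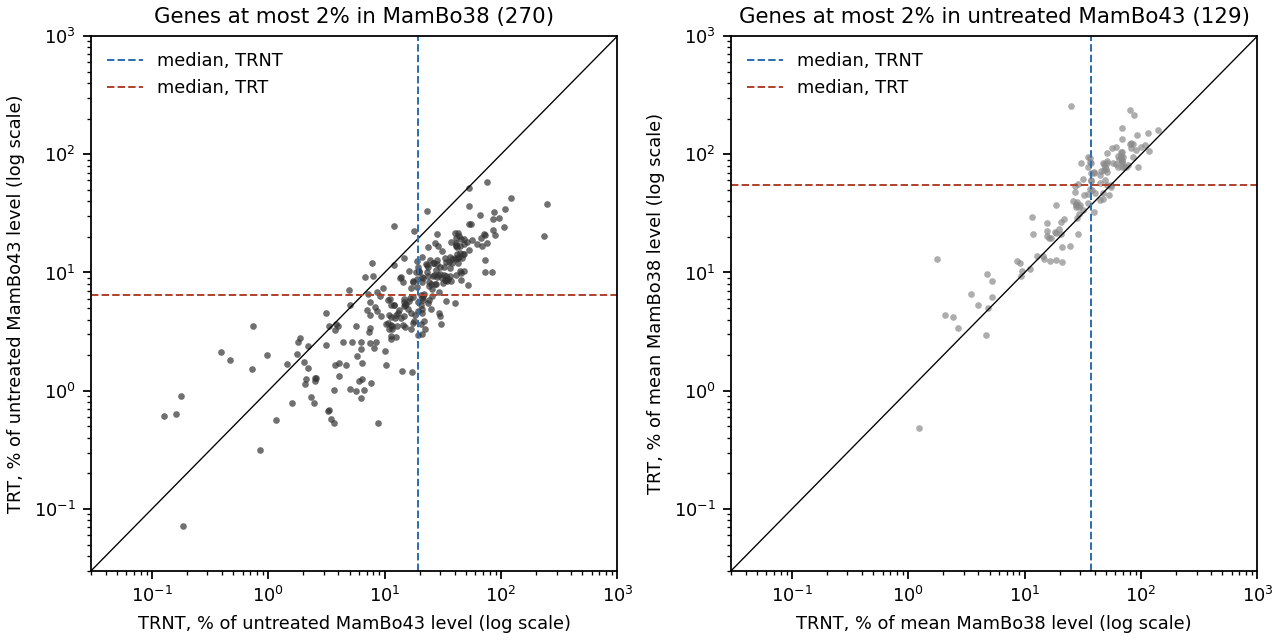
Each gene's level in TRNT (x axis) and TRT (y axis) as a percentage of the untreated MamBo43 level for 270 genes at most 2% as high in MamBo38 (left), and as a percentage of the MamBo38 mean for 129 genes at most 2% as high in untreated MamBo43 (right), on log scales. On the left most points lie below the line of equality (medians 19.2% and 6.47%, dashed) and on the right most lie above it (36.9% and 54.5%).

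The same schedules in the other lines gave smaller differences. In MamBo38, 11 of 9894 genes (0.111%) differed at least 2-fold between TRT and TRNT, 10 of them higher in TRT (0.101%) and 1 in TRNT (0.0101%). In MamBo89, 265 of 9998 (2.65%) did, 125 of them higher in TRT (1.25%) and 140 in TRNT (1.4%). The SD of the log2 ratio over tested genes was 0.52 in MamBo43, 0.43 in MamBo89 and 0.19 in MamBo38. Many genes called in MamBo43 were below the level filter elsewhere. Of the 395 higher in TRNT, 128 passed it in MamBo38, with a median log2 ratio of 0.06 there, and 325 in MamBo89, with a median of -0.06. Of the 184 higher in TRT, 122 passed it in MamBo38 (median 0.07) and 89 in MamBo89 (median -0.23). MamBo89 shared 13 calls in the same direction with MamBo43 and 12 in the opposite direction, together 9.43% of its own list and 4.32% of the MamBo43 list. Areg was called in both lines, with 90.6 CPM in untreated MamBo89, 19.0 in TRT and 142.4 in TRNT.

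The gene groups of MamBo43 did not behave alike in MamBo89. Its junction list had a median log2 ratio of -0.07 with 1 of 29 genes called, and Cdh1 was at 1033, 825.3 and 1084 CPM in untreated, TRT and TRNT cells and Epcam at 727.4, 710.8 and 585.4 CPM. Its interferon list had a median of -0.47, with 26 of 28 genes lower in TRT and 3 called, against 26 of 26 higher in TRT in MamBo43. With 1 library for each schedule and line, the difference between the lines was not tested.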

How the data were processed

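RNA was extracted with Trizol, libraries were made with a TruSeq v2 kit that keeps no strand, and reads of 75 nucleotides were sequenced in single-end mode. The authors aligned them with STAR 2.5 and deposited RSEM 1.3.0 expected counts for 21846 mouse genes on mm10, 1 column for each library. All values were whole numbers, so none was rounded. Groups were taken from the labels. Which reads the counting split between near-identical genes is not given in the sources used here, so the percentage of each named gene's 75-base windows that occur in transcripts of other genes was computed from GENCODE M21.

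Library sizes were scaled by TMM over all 11 libraries (edgeR 4.0.16, R 4.3.3), and CPM were taken from them. Total counts had a median of 20592201, and 3 counts correspond to 0.114 to 0.179 CPM. Counts under 3 were set to 3 before a ratio was taken. Genes above 5 CPM in either library of a pair were compared, and a ratio of at least 2 was called, after the fold minimum of the study. Exact Clopper-Pearson intervals (scipy 1.17.1) cover counting error only, since reads carry no molecular identifiers. No p-value was computed, because each schedule has 1 library. The comparison was tested on simulated data. RefSeq promoters were matched by symbol.

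The text names the 10 genes with the largest ratio in each direction, the 5 largest of each class of return, up to 6 called members of each list (or its leading members by level where none was called), and genes the study names, and others are marked. Some genes that this rule selects are not reported here. The genes compared and the 23 lists were chosen with earlier results of these data known. Mx1 and Mx2 are not analysed here. Alternatives were other scalings, level filters, floors, thresholds and sets of MamBo38 libraries.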

Additional observations from a re-analysis of the deposited data

Results flagged for a closer look

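In 12 genes the ratio of TRT over TRNT was at least 2-fold in MamBo43 and at least 2-fold in the opposite direction in MamBo89. The genes named in the report among them were Ankrd37, a target of hypoxia-inducible factors, whose log2 ratio was -1.03 in MamBo43 and 1.68 in MamBo89, and Usp18, whose log2 ratio was 1.59 in MamBo43 and -1.01 in MamBo89. Usp18 had 87.3 CPM in untreated MamBo89, 82.8 in TRT and 167.2 in TRNT. Ankrd37 had 6.17, 10.3 and 3.20 CPM there, and 13.3% of its windows are shared with other transcripts. Each ratio rests on 1 library for each schedule, and the difference between the lines was not tested.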

How the results depend on the processing

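With 1 library for each schedule, biological variation between cultures could not be separated from the effect of the schedule, and the depth limits mainly genes near 5 CPM. No paired analysis was possible because the labels give no replicate numbers that the schedules share. No scaling moved the median log2 ratio of all tested genes by more than 0.05. RLE size factors, total counts and TMM over the pair gave 579, 580 and 573 called genes, and the RLE factors put 1 junction gene, Cldn1, in the list higher in TRT. The counts moved with the level filter, which sets how many genes are compared.

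Above 1 CPM, 957 genes were called, 320 higher in TRT and 637 in TRNT, with 107 called in MamBo38 and 638 in MamBo89. TRNT had the lower position between the ends in 94.7% of called genes higher in TRNT and 76.2% of all genes, and 79.8% were returned or partly returned (555 partly returned, 77 away in TRNT alone, 61 farther, 17 on opposite sides). Above 20 CPM, 305 were called, 99 and 206 in the same order, with 2 in MamBo38 and 139 in MamBo89. The shares were then 99.4% and 81.6%, with 89 genes returned, 178 partly returned, 11 away in TRNT alone and 4 farther. Without a filter, 1432 were called, 520 and 912, with shares of 86.6%, 71.0% and 69.8%, and 348 returned, 651 partly returned, 222 away in TRNT alone, 115 farther, 20 on opposite sides and 76 within 2-fold.

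Requiring the whole counting interval past 2-fold left 116 genes higher in TRT of 419 called. Ends at least 4-fold apart gave 84.4% of all genes with TRNT at the lower position. Judged by distance from untreated cells in place of position, an alternative chosen after seeing the data, the shares were 79.1% of all genes, 97.2% of called genes higher in TRNT and 80.6% of those higher in TRT, the last of which was 68.5% by position. With distances from untreated called at 1.5-fold, 17 genes were farther, 20 on opposite sides and 0 within the fold. Leaving out each MamBo38 library gave 78.8% to 79.4% over all genes, 98.3% for called genes higher in TRNT and 68.3% to 69.0% for those higher in TRT. The medians as a percentage of an end were then 6.47% to 6.77% and 19.0% to 19.3% (untreated end), and 51.8% to 56.1% and 36.6% to 38.1% (MamBo38 end). No named gene called reversed its direction under another scaling or floor. Adding 0.5 CPM in place of the floor moved the log2 ratios of Cidea and Csdc2 to -3.10 and -3.02.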
